A study of Mus musculus with 6 samples.

Results

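A set of 9 genes that mark intestinal tuft cells was followed in bulk RNA sequencing of mouse ileal epithelium: the transcription factor genes Pou2f3, Gfi1b, Hmx2 and Hmx3, and the structural, surface and enzyme genes Dclk1, Avil, Sh2d6, Siglecf and Chat. All 9 were chosen by name and found by their Ensembl identifiers, as 9 of the 22274 rows of the deposited table. The epithelial cells came from 2 groups of 3 libraries. Control mice carried the loxP-flanked Ogt allele (genotype label LoxP). In the other group, labelled as an intestinal stem cell-specific Ogt knockout, the floxed Ogt allele was combined with Olfm4-CreER, a tamoxifen-activated recombinase driven from a crypt stem cell gene. Tamoxifen was given on 3 consecutive days from 2 months of age and the ileum was taken on day 10, when, per the labels, the knockout epithelium lacked Ogt throughout. The treatment text is the same for every sample, and no Cre is named for the controls, so effects of the driver and of losing Ogt cannot be told apart. The labels do not say whether the libraries came from separate mice, so the p-values cover only the spread among these libraries, which may be technical.

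Tuft cells are rare chemosensory cells of the epithelium that sense luminal metabolites and signal to immune cells and nerves. In mice their formation requires the POU-domain transcription factor encoded by Pou2f3, and they arise from the same crypt progenitors as the other epithelial lineages. They are recognised by a long, blunt bundle of microvilli, by the kinase Dclk1, and by actin-bundling proteins of that bundle. In the small intestine their number can grow under type 2 cytokines.

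Libraries held between 14389429 and 18076479 rounded estimated counts. The targeted gene, Ogt, which encodes O-GlcNAc transferase, stood at 140 (control 1), 127 (control 2) and 128 CPM (control 3), against 48.5, 43.0 and 36.0 CPM in knockouts 1 to 3, so the groups did not overlap (log2 fold change -1.63 ± 0.13, ± SE here and below; adjusted p = 0.00121). The mean left was 32.3% of control. Which exons were deleted is not given, and counts of a whole gene include those that remain. CPM are counts scaled for library size with TMM factors (normalised CPM). P-values are from edgeR's quasi-likelihood test, Benjamini-Hochberg adjusted over 14005 tested genes with a threshold of 0.05. Of those genes 9.37% were called lower and 9.33% higher in the knockout libraries, and the median log2 fold change was -0.05. A gene was tested when it had enough counts in at least 3 libraries (the filterByExpr rule of edgeR, minimum count 10).

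All 9 genes were lower in each knockout library than in any control library, by CPM. The same was true of 17.3% of the 17722 genes with at least 1 count and of 20.2% of the tested genes. Their levels in the knockout libraries averaged between 6.69% (Sh2d6) and 26.1% (Gfi1b) of the control mean. Of the 9, 7 passed the count filter, and 6 of those 7 were called lower: Pou2f3, Dclk1, Avil, Sh2d6, Siglecf and Chat. None was called higher. All 6 were both called and lower by at least 2 on the log2 scale, as were 0.614% of all tested genes. Hmx3 missed the threshold, and Gfi1b and Hmx2 had too few counts to be tested. Pou2f3, Hmx3, Sh2d6 and Chat passed the filter through the control libraries where they were high, so this count is a description only. Dclk1, Avil and Siglecf had 12 or more counts in every knockout library, enough for the filter there too. With no filter on counts all 9 entered the test and 5 were called lower, where 6.82% of the genes tested that way were. In these bulk samples, fewer tuft cells and less of these RNAs per tuft cell cannot be told apart.

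**Figure D1:**
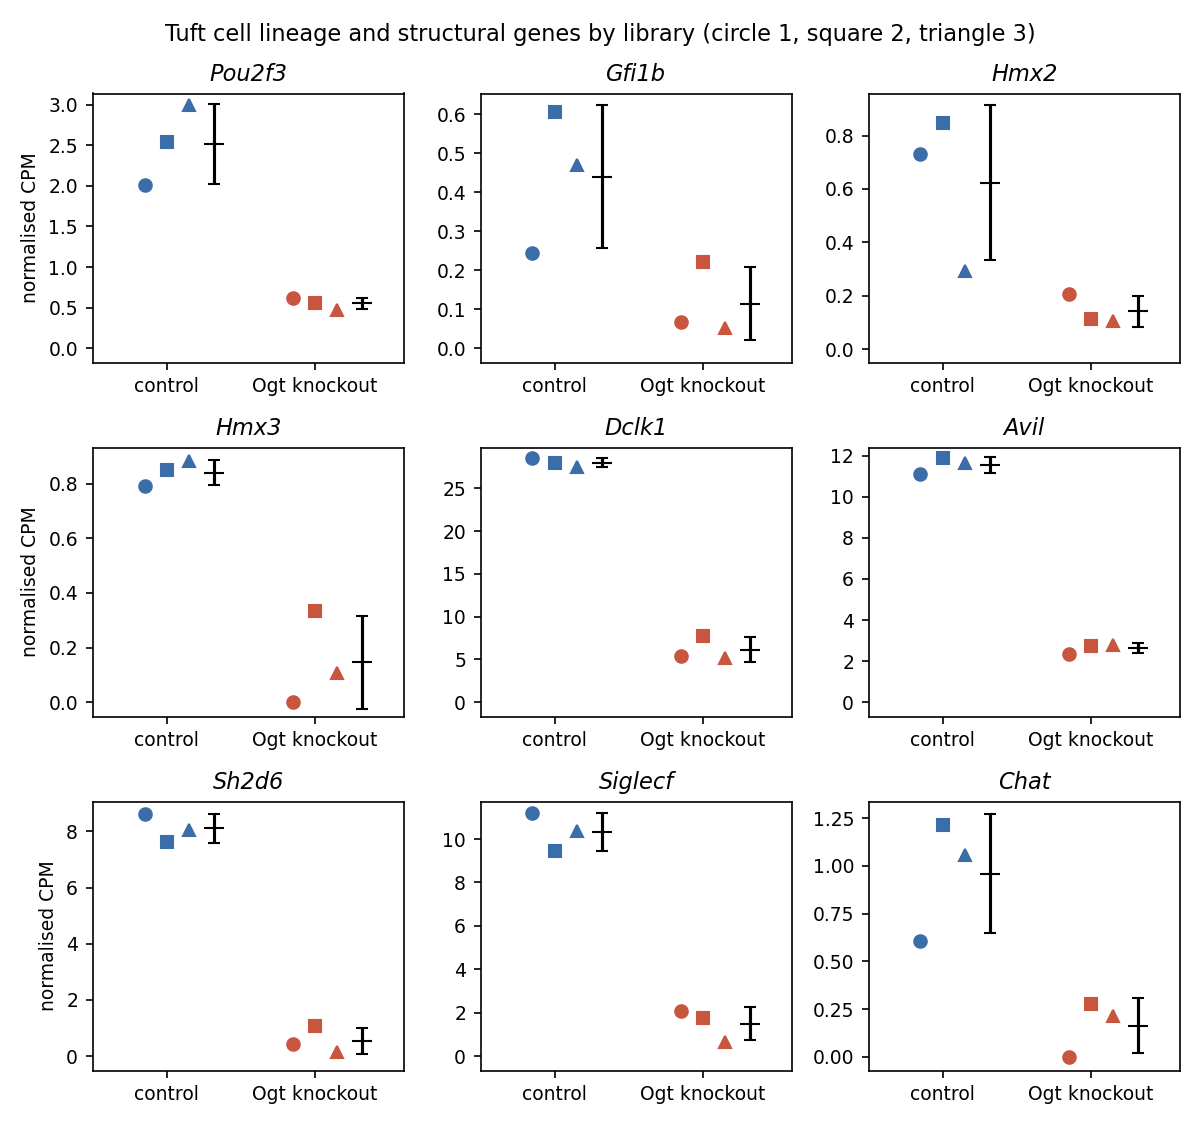
Normalised CPM of the 9 genes in each library (blue, control; red, Ogt knockout; circle, square and triangle are replicates 1, 2 and 3), with the mean and SD (n = 3) beside each group in black. Each panel has its own axis; Dclk1 is the most counted member, at 27.5 to 28.6 CPM in the controls and 5.13 to 7.77 CPM in the knockouts, and Gfi1b is the least, with its nearest libraries at 0.243 and 0.222 CPM.

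Pou2f3 (ENSMUSG00000032015, chromosome 9), the lineage-determining factor, had 33, 42 and 51 counts in controls 1 to 3 and 9, 10 and 9 counts in knockouts 1 to 3. These are 2.01, 2.55 and 3.0 CPM against 0.622, 0.555 and 0.476 CPM. The control libraries differed among themselves about as far as counting alone allows, with a coefficient of variation of 19.7% where 15.4% is the counting error, and every knockout library lay far below them. The log2 fold change was -2.19 ± 0.34 (adjusted p = 0.00566). The call was made under every alternative tried, with adjusted p up to 0.0339.

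Gfi1b (ENSMUSG00000026815, chromosome 2), a zinc-finger repressor found in tuft cells and in the red cell and platelet lineages, was the member with the fewest reads. It had 4, 10 and 8 counts in the controls and 1, 4 and 1 in the knockouts. Summed over the groups this was 22 against 6 counts, a control to knockout ratio of 3.77 after scaling, with an exact (Clopper-Pearson) 95% interval of 1.48 to 11.4. Control 1 and knockout 2 had the same count of 4 and the same deposited FPKM (fragments scaled for transcript length and library depth) of 0.14, so the groups touch on that scale. Without a count filter the log2 fold change was -1.85 ± 0.79 (adjusted p = 0.157), and it did not pass. Such intervals cover counting error only.

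Hmx2 (ENSMUSG00000050100) and Hmx3 (ENSMUSG00000040148) encode related NK-family homeobox factors, known in mice for roles in the inner ear and hypothalamus, and lie on chromosome 7, both within the span of Fgfr2 without exon overlap (Fgfr2 at -0.14, adjusted p = 0.448). Hmx2 had 12, 14 and 5 counts in the controls and 3, 2 and 2 in the knockouts. The ratio over the groups, 31 to 7 counts, was 4.56 with an interval of 1.97 to 12.3. Control 3 lay nearer to the knockout libraries than to the other controls. Without a filter its log2 fold change was -2.12 ± 0.70 (adjusted p = 0.0733).

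Hmx3 was steadier in the controls, with 13, 14 and 15 counts, and had 0, 6 and 2 counts in the knockouts. A count of 0 in knockout 1 allows up to 0.207 CPM (3 counts), against 0.791 to 0.882 CPM in the controls. The scaled ratio of 42 to 8 counts was 5.40, with an interval of 2.51 to 13.3. The fitted log2 fold change was -2.40 ± 0.71 and missed the threshold narrowly (adjusted p = 0.0508; range 0.0297 to 0.171 over the alternatives). Leaving out knockout 2, the library with 6 counts, gave -3.67 and a call (adjusted p = 0.0462).

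Dclk1 (ENSMUSG00000027797, chromosome 3), a doublecortin-like kinase that binds microtubules, was the most counted member. It had 470, 462 and 467 counts in the controls, and 78, 140 and 97 in the knockouts. In CPM the controls stood at 28.6, 28.0 and 27.5, and the knockouts at 5.39, 7.77 and 5.13. The control libraries were almost level, with a coefficient of variation of 2.02%, below the counting error of 4.63%. The 4032 tested genes with a control mean of 8 to 30 CPM had a median coefficient of 13.6%. The log2 fold change was -2.20 ± 0.18 (adjusted p = 0.00134). Exons of Dclk1 overlap those of Gm21954 and Gm42609 on the opposite strand, of which Gm21954 was at 0 in every library and Gm42609 was not analysed here.

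Because the genes of this group were lower together, their promoter windows were searched for letters bound by members of the group. Windows run from 250 bases before to 50 after an annotated start (RefSeq, GRCm38.p6, an older build than the one named for the deposited table). The table has 10 windows for 8 of the 9 genes, with Pou2f3 as the one without an entry. Dclk1 has 2 windows on chromosome 3, both on the plus strand, at chr3:55242114-55242413 and chr3:55461478-55461777. They are shown because Dclk1 is the best measured member and has 2 annotated starts, which gene-level counts cannot separate. Each is written 5′ to 3′, with the first transcribed base as its single capital.
Dclk1 window 1: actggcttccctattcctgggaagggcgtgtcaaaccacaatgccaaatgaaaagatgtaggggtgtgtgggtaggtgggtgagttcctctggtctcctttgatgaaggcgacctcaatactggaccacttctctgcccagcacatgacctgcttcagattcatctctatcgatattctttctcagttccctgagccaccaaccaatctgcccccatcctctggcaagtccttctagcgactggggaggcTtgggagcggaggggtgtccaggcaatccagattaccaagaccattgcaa
Dclk1 window 2: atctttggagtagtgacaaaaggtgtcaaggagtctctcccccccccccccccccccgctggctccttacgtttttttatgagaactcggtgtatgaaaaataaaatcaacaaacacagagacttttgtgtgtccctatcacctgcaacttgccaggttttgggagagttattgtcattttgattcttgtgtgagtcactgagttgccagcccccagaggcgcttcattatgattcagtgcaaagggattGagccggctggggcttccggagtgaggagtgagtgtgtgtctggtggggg

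The octamer ATGCAAAT, the classical site of POU factors of this class, was in 0 of the 10 windows, read on both strands, and in 1.74% of all 32851 windows of the table. With 1 base free (ATGCNAAT, which includes the octamer) it was again in 0 of 10, against 3.15% of all windows. The HMX-type core CAAGTG was in 0 of 10, against 13.6%. The GFI-type site AATCACNGC was in 1 of 10 windows, that of Avil, against 0.919% of all windows. These counts say only which letters stand in these 300 bases.

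Avil (ENSMUSG00000025432, chromosome 10) encodes advillin, an actin-binding protein of the villin and gelsolin family found in the microvillus bundle of tuft cells and in sensory neurons. It had 183, 196 and 198 counts in the controls and 34, 49 and 53 in the knockouts. In CPM the controls were at 11.1, 11.9 and 11.6 and the knockouts at 2.35, 2.72 and 2.80. Both groups were tight, and they were far apart. The log2 fold change was -2.13 ± 0.18 (adjusted p = 0.00136). Avil shares exon sequence with Tsfm on the opposite strand, and the library kit did not mark strand, so their shared reads cannot be told apart. Tsfm had 14.8 ± 1.05 CPM (SD, n = 3) in the knockouts against 10.6 ± 2.87 CPM in the controls, with a log2 fold change of 0.49 that was not called (adjusted p = 0.130), but was 0.78 and called without control 1 (adjusted p = 0.0113). The window of Avil, on the plus strand at chr10:127000459-127000758, is shown for its GFI-type match, which reads on the minus strand from position 200 of the window. Capitals mark that match and the first transcribed base.
Avil window: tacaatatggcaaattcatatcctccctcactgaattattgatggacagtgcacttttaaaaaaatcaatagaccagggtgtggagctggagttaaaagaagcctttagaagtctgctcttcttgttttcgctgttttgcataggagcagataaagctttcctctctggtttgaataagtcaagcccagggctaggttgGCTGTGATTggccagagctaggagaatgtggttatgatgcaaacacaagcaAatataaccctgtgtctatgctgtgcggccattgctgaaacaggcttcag

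Sh2d6 (ENSMUSG00000052631, chromosome 6), a gene for an SH2-domain adaptor protein that is used as a tuft cell marker, fell the furthest of the 9. It had 142, 126 and 137 counts in the controls and 6, 19 and 3 in the knockouts, or 8.64, 7.64 and 8.06 CPM against 0.414, 1.05 and 0.159 CPM. The knockout libraries were all low but unequal, with knockout 2 the highest. The log2 fold change was -3.88 ± 0.51 (adjusted p = 0.00353). Without knockout 2 it was -4.85 (adjusted p = 0.0129).

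Siglecf (ENSMUSG00000039013, chromosome 7) encodes a sialic acid-binding lectin of the cell surface, present on mouse tuft cells and eosinophils. The deposited table lists it under the synonym Siglec5. It had 184, 156 and 176 counts in the controls and 30, 32 and 12 in the knockouts. Its CPM were 11.2, 9.45 and 10.4 against 2.07, 1.78 and 0.634, with knockout 3 below the other knockouts. The log2 fold change was -2.80 ± 0.38 (adjusted p = 0.00381).

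Chat (ENSMUSG00000021919, chromosome 14) encodes choline acetyltransferase, which makes acetylcholine in tuft cells and in cholinergic neurons. It had 10, 20 and 18 counts in the controls and 0, 5 and 4 in the knockouts. The count of 0 was in knockout 1, where Hmx3 was also at 0. The scaled ratio of 48 to 9 counts was 5.49, with an interval of 2.66 to 12.7. The log2 fold change was -2.43 ± 0.70 and passed narrowly (adjusted p = 0.0457). It did not pass when control 2 or 3 or any 1 of the knockouts was left out (adjusted p between 0.0715 and 0.134), nor with library size alone (0.0522) or no count filter (0.0546). Slc18a3, the vesicular acetylcholine transporter gene, lies within Chat without exon overlap and averaged 1.22 ± 0.43 CPM in the controls and 0.669 ± 0.342 CPM in the knockouts (-0.83 ± 0.50, adjusted p = 0.276).

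**Figure D2:**
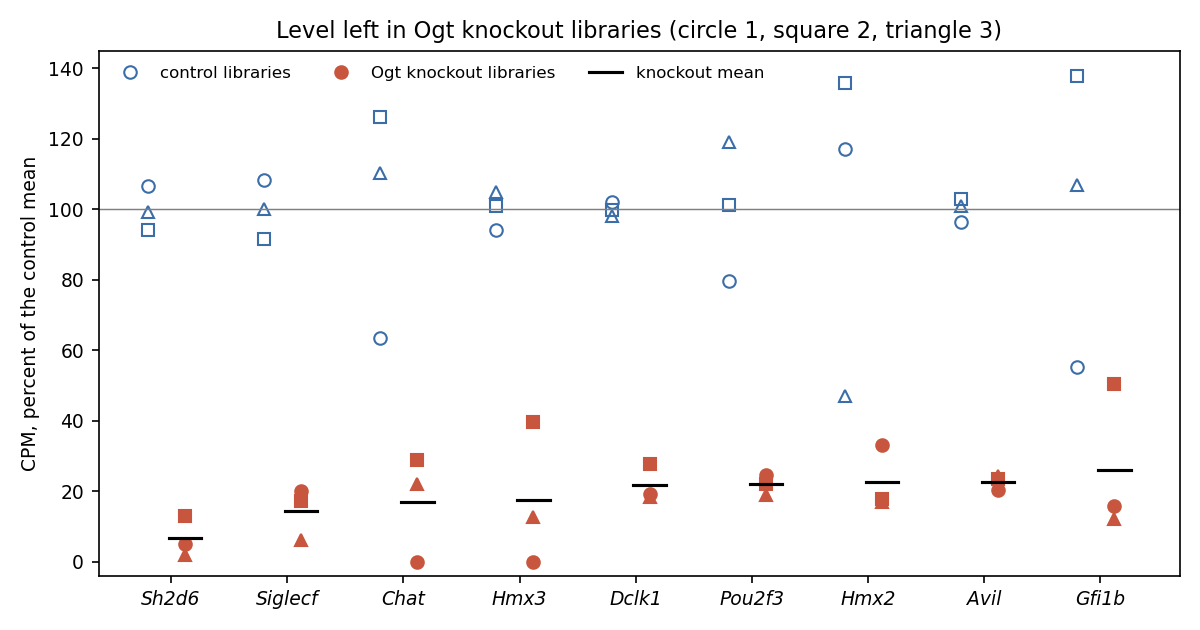
CPM of each gene in every library as a percentage of its control mean, ordered from the lowest knockout mean (black bar) on the left; open blue symbols are control and filled red symbols are knockout libraries. Sh2d6 stands lowest at 6.69%, Dclk1, Pou2f3, Hmx2 and Avil lie between 21.8% and 22.7%, and Gfi1b, Hmx2 and Chat, which have few counts, scatter widely in both groups.

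Per transcript length, Sh2d6 was the highest member in control libraries, with a deposited FPKM of 5.65 ± 0.45 (SD, n = 3). Dclk1 (FPKM 4.76 ± 0.28), Avil (4.44 ± 0.59) and Siglecf (3.87 ± 0.41) followed. Sh2d6 lay above Dclk1 in every control, whereas Dclk1 and Avil overlapped, as did Avil and Siglecf. The transcription factors and Chat formed a lower tier. Pou2f3 had an FPKM of 0.95 ± 0.17, Hmx3 0.550 ± 0.020, Chat 0.347 ± 0.055, Hmx2 0.300 ± 0.108 and Gfi1b 0.247 ± 0.101. Siglecf and Pou2f3 did not overlap, nor did Pou2f3 and Hmx3 or Hmx3 and Chat, while Chat, Hmx2 and Gfi1b overlapped in turn. In the knockout libraries Sh2d6 had a mean FPKM of 0.427 ± 0.372, below Dclk1 (1.07 ± 0.22), Avil (1.05 ± 0.12) and Siglecf (0.607 ± 0.297). Sh2d6 and Siglecf overlapped there, and in knockout 2 Sh2d6 (0.84) lay above Siglecf (0.72). The gene lengths behind these FPKM are not stated in the file headers.

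The members were also set against Dclk1 within each library, which removes differences in depth. Pou2f3 had 9.01% as many counts as Dclk1 in the controls together and 8.89% in the knockouts together. Avil had 41.2% and 43.2%, Hmx2 2.22% in both, Hmx3 3.0% and 2.54%, Chat 3.43% and 2.86%, and Gfi1b 1.57% and 1.90%. For each of these 6 genes the libraries of the groups overlapped. Sh2d6 had 30.2%, 27.3% and 29.3% of the Dclk1 count in the controls and 7.69%, 13.6% and 3.09% in the knockouts, with no overlap. Siglecf had 39.1%, 33.8% and 37.7% against 38.5%, 22.9% and 12.4%, with knockout 1 inside the control range. The exact two-sided permutation test gave p = 0.1 for Sh2d6, the smallest p that 3 against 3 libraries allow, and 0.3 for Siglecf. The other 6 gave between 0.6 and 0.9, and adjusted over the 8 ratios the values lay between 0.8 and 0.9. The design therefore cannot show a difference by this test, and overlapping ratios from few counts do not show that members fell alike.

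**Figure D3:**
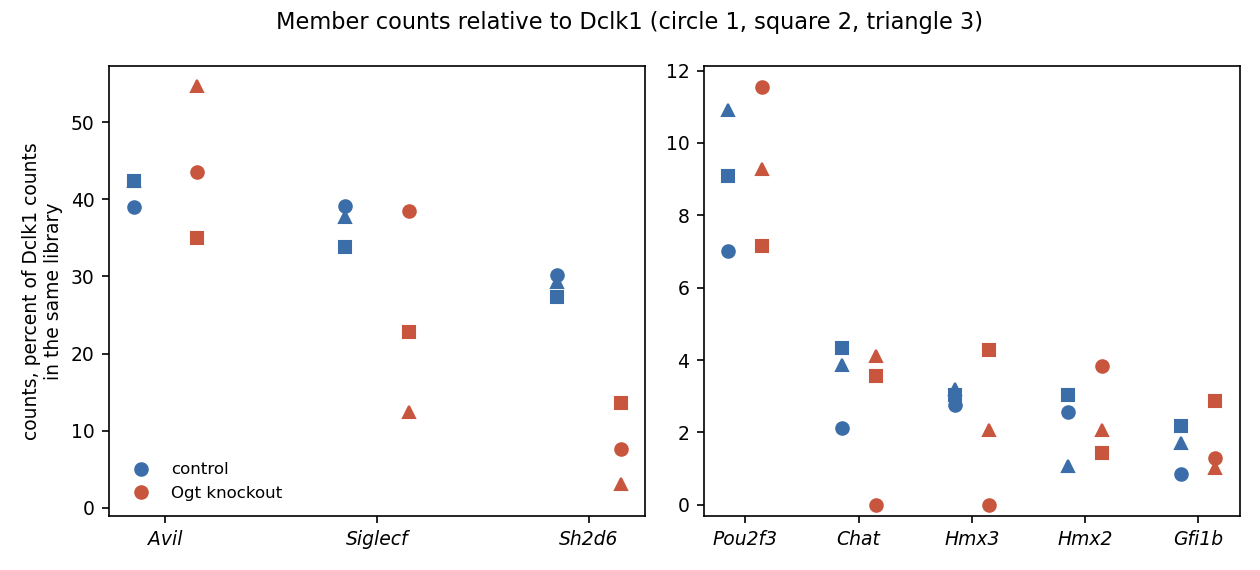
Counts of 8 members as a percentage of Dclk1 counts in the same library (blue, control; red, Ogt knockout; symbols are replicates), with the more abundant genes on the left and separate vertical axes. Sh2d6 is the member whose groups do not overlap, at 27.3% to 30.2% in control and 3.09% to 13.6% in knockout libraries.

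The 3 knockout libraries were not ranked the same way by every gene. Knockout 2 was the highest knockout library for 5 members (Gfi1b, Hmx3, Dclk1, Sh2d6 and Chat), knockout 1 for 3 (Pou2f3, Hmx2 and Siglecf) and knockout 3 for Avil. Summed over the 9 genes the control libraries stood at 63.9, 63.0 and 63.2 CPM and the knockouts at 11.1, 14.8 and 9.67 CPM. Over the same knockout libraries Ogt was highest in knockout 1, at 48.5 CPM, so the order of the members' sum was not that of Ogt.

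Other genes of the tuft cell programme were lower in part. Lists of 51 other tuft cell genes had 44 tested members, of which 23 were called lower and 0 higher, with a median log2 fold change of -0.86. Their called share can be read against the 9.37% of all tested genes called lower. Of these 23 genes 15 were called with each single library left out, and 8 lost the call without at least 1 library. Some of the 23, such as Gnat3, Sucnr1, Ffar3 and Nrgn, passed the filter through the control libraries where they were high. The counts of calls in these lists are therefore a description only. With no count filter all 51 entered the test and 23 were called lower, against 6.82% of all genes tested that way. No list test was run. Among chemosensory genes 6 of 12 tested were called lower. Rgs13, a regulator of G protein signalling (-2.84 ± 0.19), the cation channel Trpm5 (-2.51 ± 0.23) and the succinate receptor Sucnr1 (-2.75 ± 0.38) had the smallest adjusted p of this list. Ffar3 (-2.75) and Gnat3 (-2.70), also called, had larger fold changes than Trpm5. Itpr3, its most abundant gene and an IP3 receptor, was not called (adjusted p = 0.433).

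Among 6 tested genes of eicosanoid output, Alox5 (-2.75 ± 0.34) and its activating protein gene Alox5ap (-1.83 ± 0.43), both of leukotriene synthesis, and the prostaglandin D synthase Hpgds (-0.90 ± 0.25) were called lower. Ptgs1, a cyclooxygenase and the most abundant of them, stood at -0.22 ± 0.20 and was not called. Il25, the cytokine gene of tuft cells, had 7 counts over the controls and 0 over the knockouts and was not tested. Of 26 tested signalling and structural genes 14 were called lower. By adjusted p the first were Strip2 (-2.83 ± 0.30) and the tyrosine kinases Bmx (-2.73 ± 0.31) and Matk (-2.03 ± 0.23), while by fold Sh2d7 was the lowest of the list (-3.10). Krt18, a keratin of simple epithelia and the most abundant of this list, was at 0.17 ± 0.37 and was not called. Its controls 1 to 3 stood at 577, 228 and 242 CPM and its knockouts between 340 and 468 CPM. Without control 1 Krt18 was called higher (0.78 ± 0.14, adjusted p = 0.00809). Alox5ap lost its call without any 1 of control 2, control 3, knockout 2 or knockout 3, and Hpgds without any library except control 1 (adjusted p up to 0.0981 and 0.133).

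**Figure D4:**
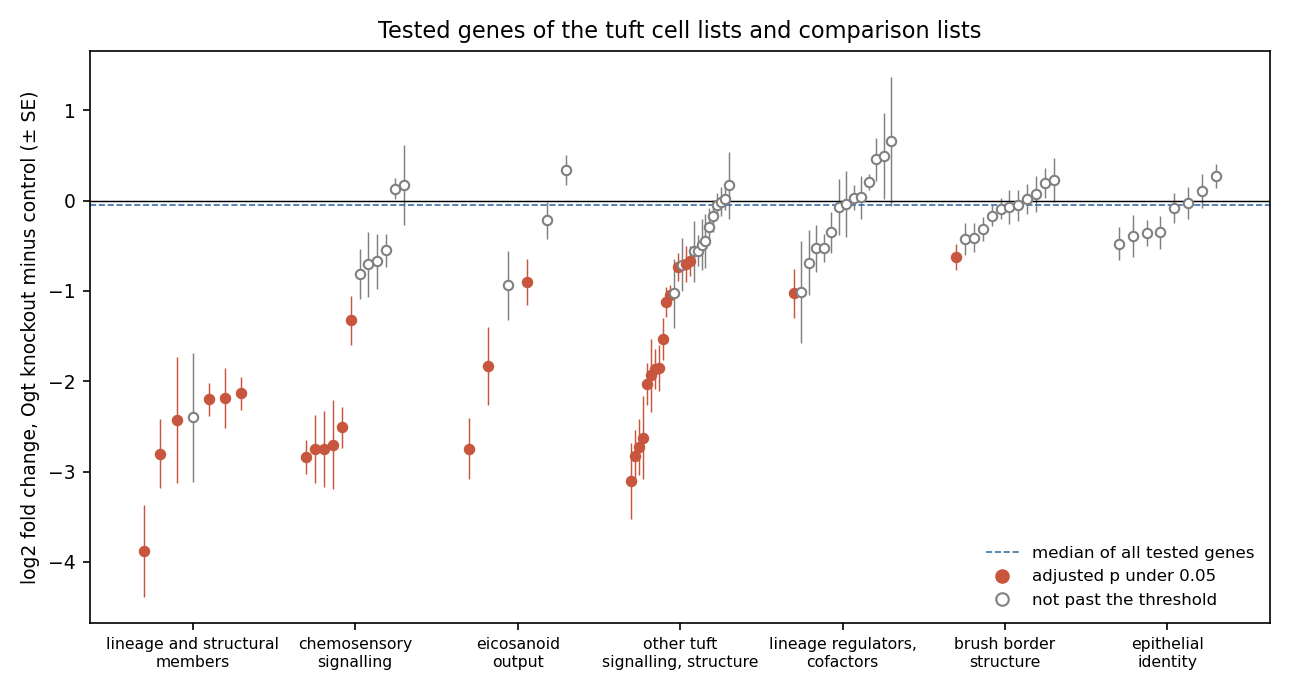
Log2 fold change (knockout minus control) of every tested gene of the members and of the lists of other tuft cell genes, lineage regulators, brush border and epithelial identity genes. Filled points are called at the adjusted threshold of 0.05; bars are SE and the 7 tested members lie at -2.13 and below, whereas the regulators have a median of -0.06 with 1 call.

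Lineage regulators and cofactors outside the 9 genes had 14 tested members, of which 1 was called lower and 0 higher (median log2 fold change -0.06). Runx1, a transcription factor of blood and epithelial cells, was the call (-1.03 ± 0.27, adjusted p = 0.0346), and it was lost when any 1 of the 6 libraries was left out (adjusted p 0.0565 to 0.123). Il13ra1, a receptor subunit for the cytokine that expands tuft cells and the most abundant gene of the list, stood at -0.52 ± 0.16 (adjusted p = 0.0551), and was called without knockout 1 (-0.68, adjusted p = 0.0341). Stat6, the transcription factor under that receptor, averaged 121 ± 3.89 CPM in the controls against 140 ± 3.70 CPM in the knockouts (SD, n = 3), with no overlap, and did not pass (0.20 ± 0.09, adjusted p = 0.157). Atoh1, the secretory lineage factor (-0.69 ± 0.36), and Gfi1, the paralog of Gfi1b (0.04 ± 0.24), did not pass either. The Atoh1 value rests on control 1 (29.2 CPM, where controls 2 and 3 had 11.9 and 12.0) and was -0.07 ± 0.17 without it. Spib was lower in each knockout library than in any control, as were 20.2% of tested genes, and did not pass (-1.01 ± 0.57, adjusted p = 0.264). A difference that misses the threshold does not show that the levels were equal.

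Structural genes that tuft cells share with enterocytes had 12 tested members, of which 1, the microvillus myosin gene Myo7b, was called lower (-0.63 ± 0.14, adjusted p = 0.0214) and 0 higher. That call was lost without control 2, control 3, knockout 1 or knockout 3 (adjusted p up to 0.0907). The median of the list was -0.08. Cdhr2, an intermicrovillar cadherin (-0.41 ± 0.16), and Espn, the actin bundler espin (-0.43 ± 0.18), did not pass, nor did Actb (-0.07 ± 0.19), the most abundant. Without control 1 Cdhr2 (-0.46, adjusted p = 0.0437) and Espn (-0.55, adjusted p = 0.0192) were called lower. Vil1, which encodes villin and belongs to the same family as Avil, was at 0.02 ± 0.17. Genes of epithelial identity had 8 tested members and 0 calls (median -0.22), with Epcam at -0.47 ± 0.18 (adjusted p = 0.102) and Krt8 at 0.11 ± 0.19. Their summed level was 14293 to 19524 CPM in the controls and 13349 to 16341 CPM in the knockouts.

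Some members are also expressed by other cells that the preparation could hold, so markers of those cells were read beside them. Siglecf is shared with eosinophils. Of 8 eosinophil genes 3 were tested. Epx, the eosinophil peroxidase, was called higher in the knockout libraries, with 4 counts over the controls and 106 over the knockouts (4.52 ± 0.74, adjusted p = 0.00674). Prg2, an eosinophil granule gene, had 63 and 36 counts (-0.89 ± 0.60, adjusted p = 0.336) and Ear2 36 and 38 counts (0.08 ± 0.57), and neither was called. Of the untested genes Il5ra had 28 counts in the controls and 16 in the knockouts, Ccr3 8 and 1, and Alox15 8 and 15. Ear1 and Ear6 were at 0 in every library. The summed eosinophil level was 2.35 to 3.53 CPM in the controls and 2.21 to 5.27 CPM in the knockouts. The part of eosinophils in the Siglecf result was not tested.

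Chat and Avil are shared with neurons. Of 11 tested genes of enteric neurons, Ret (-0.88 ± 0.18, adjusted p = 0.0148) and Tubb3 (-0.85 ± 0.25, adjusted p = 0.0497) were called lower and the neuropeptide gene Vip higher (1.13 ± 0.30, adjusted p = 0.0397), with a median of -0.83. Ret lost its call without control 3 or knockout 3 (adjusted p up to 0.0659). Tubb3 lost its call without any 1 library other than control 1 (up to 0.166), and Vip without control 1, control 2, knockout 2 or knockout 3 (up to 0.123). Slc5a7, the choline transporter, was at -1.17 ± 0.35 (adjusted p = 0.0531), and at -1.35 and called without control 1 (0.0247). The summed level, of which Vip is the largest part, was 55.7 to 89.7 CPM in the controls and 53.3 to 86.0 CPM in the knockouts. The other 10 genes all had log2 fold changes below 0, and 2 of them, Ret and Tubb3, were called. Without Vip their sum was 40.5, 63.1 and 61.4 CPM in controls 1 to 3 and 23.1, 36.7 and 32.6 CPM in knockouts 1 to 3. These sums did not overlap between the groups, whereas those with Vip did. Vip, the only gene of the list above 0, was left out after seeing the data, so this separation is a description only. The part of neurons in the Chat and Avil results was not tested.

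Gfi1b is shared with megakaryocytes and red cell precursors. Of 10 such genes 5 were tested and 0 called in either direction. Their sum was 50.2 to 86.2 CPM in the controls and 48.3 to 56.8 CPM in the knockouts, and their defining factor Gata1 had 0 counts over the controls and 1 over the knockouts.

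For the remaining cell types, 9 lymphocyte genes and 7 macrophage and myeloid genes gave 0 calls. Lymphocyte sums spread widely in both groups, from 594 to 2118 CPM in the controls and from 986 to 1742 CPM in the knockouts, mostly through Jchain. Myeloid sums were 212 to 237 and 182 to 231 CPM. Of 3 tested mast cell genes, with a median log2 fold change of -1.24, Kit was called lower (-0.49 ± 0.14, adjusted p = 0.0459, lost without any 1 library). Of 7 stromal genes Col1a1 was called higher (0.79 ± 0.16, adjusted p = 0.0146, lost without knockout 3 at 0.0598). Mast cell sums were 18.9 to 29.9 CPM in the controls and 15.6 to 17.7 CPM in the knockouts, and stromal sums 425 to 756 and 544 to 677 CPM.

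**Figure D5:**
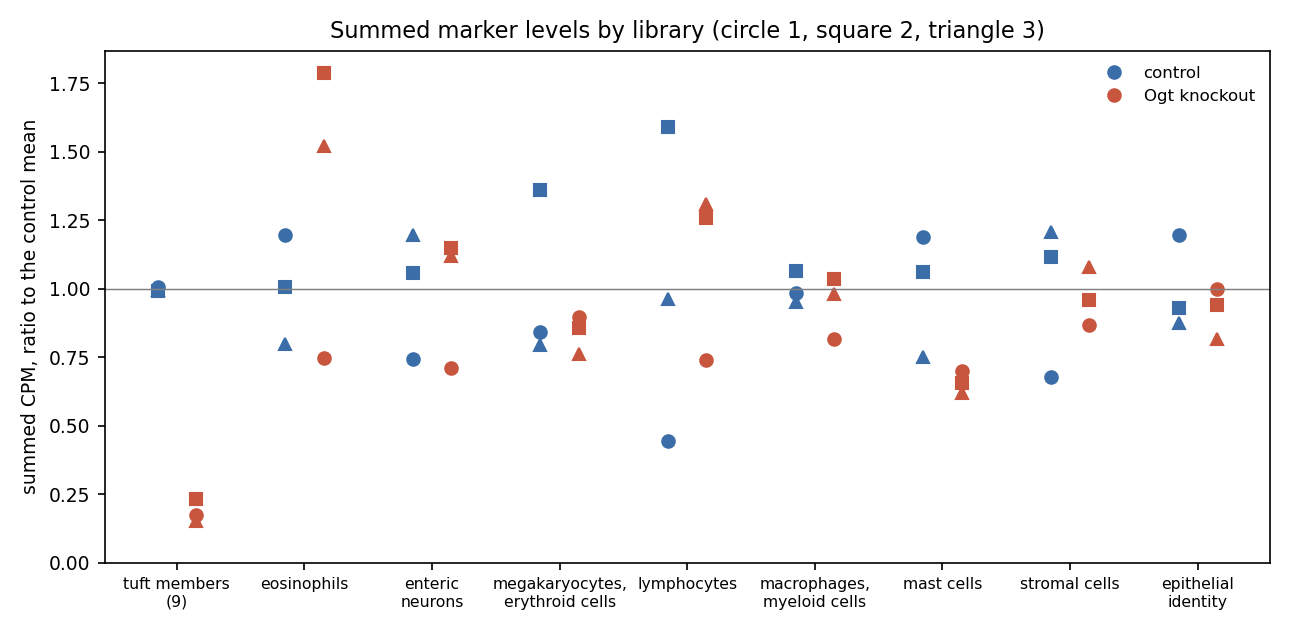
Summed CPM of each marker list per library, as a ratio to the mean of the control libraries (blue, control; red, Ogt knockout; symbols are replicates). The 9 tuft cell genes stand between 0.153 and 0.234 in the knockout libraries, and no library of another list shown lies as low.

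The genes whose pattern over the 6 libraries was most like that of the 7 tested members were sought among 12280 other tested genes, by the root mean square distance of centred log2 CPM. Among the nearest were Ugt2b5 (distance 0.119), Zfp111 (0.138), Ces1g (0.139), Nudt12 (0.151), Alox5 (0.171), Slc6a20a (0.176) and Zhx1 (0.177). Alox5 is in the lists of tuft cell genes, and the other 6 named here are in none. Slc6a20a, a proline transporter gene, was the most counted, with 237 ± 23.4 CPM in the controls and 56.1 ± 14.9 CPM in the knockouts (SD, n = 3). The distance was taken over 6 libraries and carries no test.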

How the data were processed

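The authors deposited 1 table of estimated counts and FPKM per gene for 6 libraries, made from Trizol-extracted RNA with the NEBNext Ultra RNA kit, per the labels' protocols. The submitters' processing notes name the builds GRCm39 and mm39. Neither aligner, counter nor gene lengths are stated in the sources used. Between 10.4% and 11.05% of the deposited estimated counts above 0 were not whole (tolerance 0.001). Counts were rounded. All 9 members' counts were whole in every library. Library totals of 14389429 to 18076479 make 3 counts, the floor used for a count of 0, worth 0.159 to 0.207 CPM. No libraries were duplicates (lowest mean chi-square per gene 20.3).

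Counts were tested with edgeR 4.0.16 in R 4.3.3 (TMM, filterByExpr, robust quasi-likelihood; SE from the F statistic) and checked on simulated data. Alternatives were other scalings, DESeq2 1.42.0, limma 3.58.1 (voom, and log2 FPKM plus 0.1 or 0.01), other filters, a replicate block and each library left out. Ratios of summed counts carry exact (Clopper-Pearson) 95% intervals. FPKM, as deposited by the authors, were used for levels.

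The members and lists were chosen with earlier results of these data known. The rule for naming took the 9 members, Ogt and the 8 genes nearest in pattern. In each list it took the most abundant gene plus the 3 of lowest adjusted p (1 for lists of other cell types). Not every gene that the rule took is printed. The other genes named were chosen after their values were seen. Some results are not reported here. Overlaps came from GENCODE annotation of an older build, by name only. Of the list entries, 2 (Pou2af2, Pou2af3) had no match under those symbols. The same list of lineage regulators and cofactors held 1810046K07Rik and Colca2 (matched through the synonym Gm684), which were tested. Neither was called (0.66 ± 0.72, adjusted p = 0.562, and -0.07 ± 0.31, adjusted p = 0.889). Protein sequences were not analysed here.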

Additional observations from a re-analysis of the deposited data

How the results depend on the processing

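Pou2f3, Dclk1, Avil, Sh2d6 and Siglecf kept their direction and call under all 17 alternatives. Chat was not called with library size alone (-2.29), without a count filter (-2.44), or on log2 FPKM plus 0.1 (-1.41, with or without a filter) or 0.01 (-2.73), and ranged from -2.96 to -1.94 with 1 library left out. Hmx3 was called by DESeq2 (-2.46), limma voom (-2.88) and on log2 FPKM plus 0.1 with a filter (-1.83). It was not called on log2 FPKM plus 0.1 without a filter (adjusted p = 0.0588) or plus 0.01 (adjusted p = 0.138), both by limma. With 1 library left out it ranged from -3.67 to -1.91. On log2 FPKM plus 0.1 Gfi1b was at -1.04 and Hmx2 at -1.14, a scale that understates changes of low genes. No direction reversed among the 9 genes.

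The 1312 genes called lower became 858 with library size alone, 496, 416 and 388 on log2 FPKM (plus 0.1, plus 0.01, and plus 0.1 without a filter), and 460 to 1372 with 1 library left out. The 1307 called higher became 2045 with library size alone, where the median over all genes was 0.09 in place of -0.05 on the log2 scale, and 549 to 1932 with 1 library left out. Other tuft cell genes called higher went from 0 to at most 1 with 1 library left out. Lineage regulators called lower numbered 0 with library size alone and in the 3 fits on log2 FPKM, 2 with upper quartile factors, DESeq2 or the replicate block, and 0 to 1 with 1 library left out. Those called higher numbered 1 with library size alone and 0 to 1 with 1 library left out. The cause of these changes was not tested.

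Libraries with the same replicate number deviated together with correlations of 0.296, 0.273 and 0.0992. Pairs with different numbers lay between -0.291 and 0.0636, and each library correlated best with its own number. The labels state no pairing, and whether same-numbered libraries share an origin was not tested. With the replicate block, log2 fold changes were -2.18 (Pou2f3), -2.50 (Hmx3), -2.22 (Dclk1), -2.14 (Avil), -3.99 (Sh2d6), -2.87 (Siglecf) and -2.53 (Chat), with the same calls, and 1674 genes were called lower and 1728 higher. Depth limits Gfi1b, Hmx2, Hmx3 and Chat, which had at most 20 counts in any library.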

Other observations

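Knockout 1 stood apart in some leukocyte genes, picked out after their values were seen. Cd79a, a B cell receptor gene, was at 5.25 CPM there, against 34.9 and 37.1 CPM in knockouts 2 and 3 and 37.2 to 40.6 CPM in the controls, and the pan-leukocyte gene Ptprc at 35.9 against 103 and 88.1 CPM. Spib, a transcription factor of B cells and M cells, was at 3.04 against 18.4 and 14.9 CPM, with 22.2 to 27.3 CPM in the controls. Other leukocyte genes were not low in knockout 1. Fcer1g (10.1 CPM) and Itgam (16.4 CPM) were at their highest of the 6 libraries there. Cd8a (20.9 CPM) lay within its control range of 15.4 to 41.2 CPM. This library also had 0 counts of Chat and Hmx3, while its Pou2f3, Hmx2 and Siglecf levels were the highest of the 3 knockouts. The part of leukocytes in the members' values was not tested.

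The vomeronasal receptor gene Vmn2r26, of the chemosensory list, had 25 counts in the controls and 0 in the knockouts, and was picked out after its values were seen.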
